A study of Mus musculus with 12 samples.

Results

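The earliest response of mouse vessels to angiotensin II was followed by comparing the 3 arrays taken at day 1 of infusion with the 3 arrays of untreated mice at day 0, which are 6 of the 12 arrays of the series. Arrays entered the comparison by their time label, and each gene was represented by 1 transcript cluster. All mice were male C57BL/6 animals aged 8 to 10 weeks. Day 1 mice carried an osmotic pump that delivered angiotensin II at 1500 ng per kg per min, and day 0 mice had no treatment. No vehicle pump is described for day 0 in the labels, so 1 day of angiotensin II and 1 day after pump implantation cannot be told apart. The labels call the tissue vessel and the arrays biological replicates. The labels do not say which vessel was dissected, how much tissue around it was included, or whether an array held RNA of 1 mouse or of a pool. The other 6 arrays, from day 3 and day 7, entered the estimate of the spread between arrays.

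Angiotensin II is the effector peptide of the renin-angiotensin system. Through its type 1 receptor it makes vascular smooth muscle contract, activates endothelium and adventitial fibroblasts, and raises blood pressure. Sustained infusion in mice is a standard model of hypertensive vessel remodelling, in which leukocytes enter the wall, resident cells divide and matrix is laid down.

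Over 22083 genes that passed a filter on dim signal, 437 rose at day 1, which is 1.98% of the genes tested, and 360 fell, which is 1.63% (limma fit to all 12 arrays, Benjamini-Hochberg adjusted p under 0.05). Calls in either direction made up 3.61%. Of 20187 transcript clusters with no gene symbol, tested apart, 13 rose (0.0644%) and 36 fell (0.178%). All 3 day 1 arrays lay above all 3 day 0 arrays for 2600 genes (11.8%) and below them for 2533 (11.5%), and each of the 797 genes called was among these. Most of the response was moderate in size. The median log2 difference, day 1 minus day 0, was 0.93 among the genes that rose and -0.93 among those that fell. Differences under 2-fold made up 57.0% of the rises and 56.9% of the falls, while 38 rises and 35 falls reached 4-fold. The genes that rose had a median day 0 signal of 6.72 on the log2 scale, and those that fell had one of 8.59. A gene was called dim in a group where its signal was under the median of the negative control features on all 3 arrays. At day 0, 102 of the genes that rose were dim, and rises of such genes are given as lower bounds. Where 1 or 2 of the 3 arrays were under that median, the measured difference is given.

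**Figure D1:**
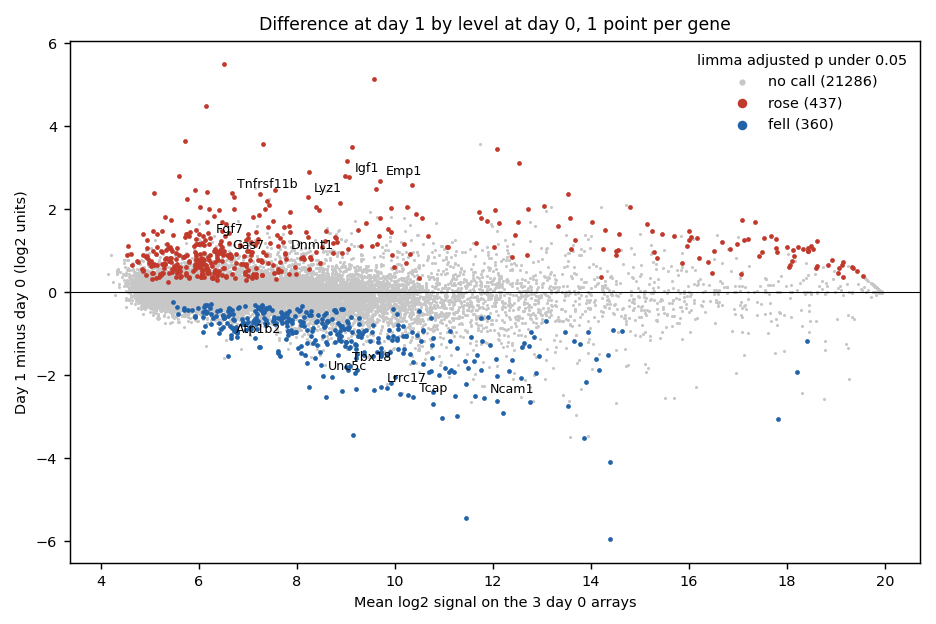
Each point is 1 of the 22083 genes tested, placed by its mean log2 signal on the 3 day 0 arrays (horizontal axis) and by its day 1 minus day 0 difference in log2 units (vertical axis). The 437 genes that rose are red and lie mostly at low day 0 signal (median 6.72), and the 360 that fell are blue and start higher (median 8.59).

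The 3 day 1 arrays formed a gradient. Day 1 replicate 3 was the nearest of the 3 to day 0 for 272 of the 437 rises and 285 of the 360 falls, and replicate 1 was the farthest for 229 and 242. Pearson r across genes was 0.991 to 0.992 within day 0 and 0.974 to 0.990 within day 1. Between day 0 and day 1 arrays it was 0.971 to 0.988, which overlapped the range within day 1. Day 1 replicate 3 had r of 0.982 to 0.988 with the day 0 arrays and 0.974 with day 1 replicate 1. The mean of the adipocyte marker genes moved along the same gradient, at 9.94, 9.89 and 9.79 on the day 0 arrays and 8.70, 9.38 and 9.85 on the day 1 arrays. With that mean as a covariate 11 genes rose and 8 fell. Positive minus negative control features stood at 2.59 ± 0.05 log2 units on day 0 arrays and 2.25 ± 0.29 on day 1 arrays (SD, n = 3 per group), with 1.94, 2.30 and 2.51 on the 3 day 1 arrays (two-sided exact permutation test, p = 0.1, the smallest possible with 3 against 3). The poly-A control features, a further set of controls, had means of 5.35, 5.45 and 5.28 on the day 0 arrays. On the day 1 arrays these means were 4.56, 4.68 and 4.78, so that the groups did not overlap, replicate 3 included. Without day 1 replicate 1 or 2 the calls dropped to 187 and 101, and without replicate 3 they came to 1097. Without day 0 replicate 1, 2 or 3 they came to 333, 200 and 138. The groups of all 797 genes do not overlap, so leaving out 1 array could not turn a sign, and the sign is no check here. The 6 smooth muscle markers that define the wall, such as Myh11, had list means above 14 on all 6 arrays, and endothelial markers were detected as well. The part of adipocyte content or array processing in the results below was not tested further.

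**Figure D2:**
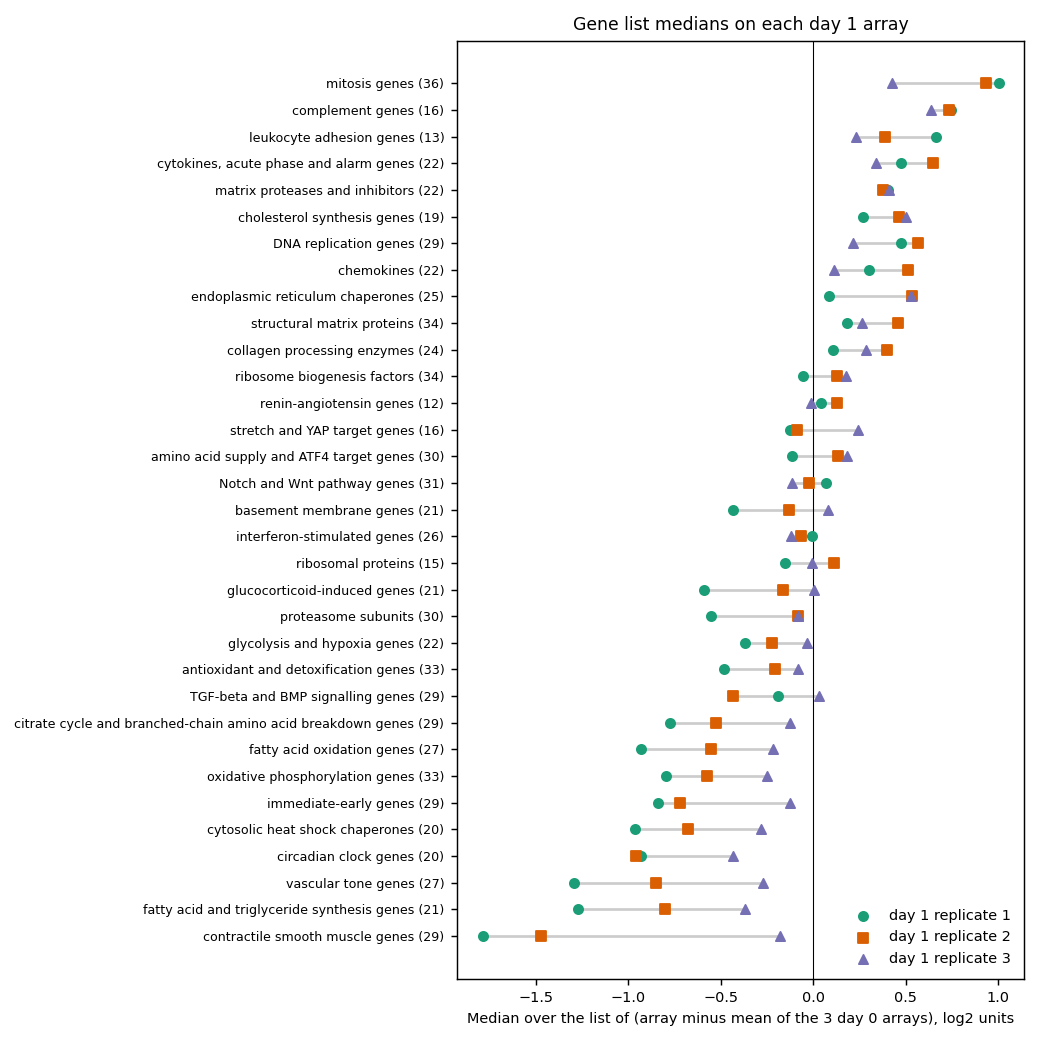
For 33 gene lists, with the number of genes tested in brackets, the markers give the median over the list of each day 1 array minus the mean of the 3 day 0 arrays, in log2 units. In the mitosis list replicates 1 and 2 stood at 1.00 and 0.93 and replicate 3 at 0.43, and in the contractile list they stood at -1.79, -1.47 and -0.18.

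A small set of calls was held by every fit. Of the 797 calls, 19 passed in all 23 alternative fits, 11 of them rises and 8 falls. The fit with the adipocyte covariate called these 19 genes and no other, so that fit alone set the size of the set. The smallest p of the comparison belonged to Tcap, titin-cap or telethonin, a sarcomere protein that anchors titin in striated muscle. Its log2 signal was 10.44, 10.55 and 10.13 at day 0 and 7.72, 7.86 and 7.95 at day 1. The 2 groups were separated by over 2 log2 units, and the difference was -2.53 ± 0.18 (± SE of the limma estimate, as for every difference below), with adjusted p = 0.000913. Lrrc17, a secreted leucine-rich repeat protein, stood at 9.79, 9.34 and 10.03 at day 0 and at 7.31, 7.63 and 7.33 at day 1 (-2.29 ± 0.18, adjusted p = 0.00106). Tbx18, a T-box transcription factor of mural cells and their progenitors, went from 8.88, 9.08 and 9.08 to 7.01, 7.07 and 7.58 (-1.79 ± 0.17, adjusted p = 0.00184). For both genes each day 1 array was more than 1 log2 unit under each day 0 array.

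Unc5c, a netrin receptor, fell by 2.02 ± 0.19 log2 units, from 8.22, 8.56 and 8.81 to 6.18, 6.48 and 6.86 (adjusted p = 0.00184). Atp1b2, a beta subunit of the sodium-potassium pump, was not above the negative control median at day 1 and was at least 1.51-fold lower there (adjusted p = 0.00184). Among the rises in this set was Lyz1, a lysozyme, at 8.14, 8.44 and 8.14 on day 0 arrays and 10.88, 10.39 and 10.30 on day 1 arrays. Its difference of 2.29 ± 0.20 (adjusted p = 0.00161) may share signal with its close paralog Lyz2, as the 2 sequences are nearly alike. Gas7, a growth-arrest gene with roles in actin organisation, rose from 6.61, 6.64 and 6.50 to 7.65, 7.53 and 7.29 (0.91 ± 0.09, adjusted p = 0.00276). The day 1 arrays of Gas7 were all high and close together. Esm1, an endothelial proteoglycan, and Mmp3, the protease stromelysin 1, were also in the set, as were the pseudogene Eif1-ps3 and 9 genes with clone-like, predicted or RNA repeat names.

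Ligands that call leukocytes were among the genes that rose. Of 22 chemokines tested, 6 rose (27.3%, against 1.98% of all genes) and none fell. All day 0 arrays were exceeded by 9 (40.9%, against 11.8%), with a median of 0.41 against 0.01 over all genes tested. Ccl7, a ligand of the monocyte receptor Ccr2, had signals of 6.03, 6.06 and 5.66 at day 0 and 8.43, 9.02 and 7.73 at day 1 (2.48 ± 0.40, adjusted p = 0.0158). At day 0 it was above the negative control median on 2 of 3 arrays, and with the other raised to that median the difference was 2.34. Ccl12, a ligand of the same receptor, was not above the negative control median at day 0 and was at least 1.48-fold higher at day 1 (adjusted p = 0.0161). Ccl9, a myeloid chemokine, rose by 1.81 ± 0.41 and Pf4, the platelet factor 4 gene, by 1.00 ± 0.18. Cxcl13, which attracts B cells, stood at 9.50, 9.92 and 9.54 at day 1 against 6.74, 7.70 and 7.01 at day 0, groups that did not overlap, but the difference of 2.50 ± 0.69 did not pass (adjusted p = 0.0876).

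In the list of cytokines, acute phase and alarm genes, 3 of 22 rose (13.6%, against 1.98% of all genes) and none fell. Above all day 0 arrays lay 9 (40.9%, against 11.8%) and below them 1 (4.55%, against 11.5%). Il4ra, the receptor chain shared by interleukins 4 and 13, stood at 7.62, 7.38 and 7.32 at day 0 and 9.34, 10.04 and 9.27 at day 1 (2.10 ± 0.45, adjusted p = 0.0388). Every day 1 array was above every day 0 array, with replicate 2 the highest. Il6, the gene of interleukin 6, was dim at day 0 and at least 2.81-fold higher at day 1 (adjusted p = 0.0425), and Serpina3n, a serine protease inhibitor of the acute phase, was the third member that rose. Il33, an alarm cytokine, at 1.72 ± 0.42 (adjusted p = 0.0601) and Osmr, the oncostatin M receptor, at 1.72 ± 0.47 (adjusted p = 0.0823) did not pass. Tnfrsf11b, the decoy receptor osteoprotegerin, rose by 2.38 ± 0.45, with 6.05, 7.55 and 6.43 at day 0 and 9.42, 9.34 and 8.42 at day 1 (adjusted p = 0.0249).

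Macrophage markers were the cell type list with the most calls. Of 24 tested, 10 rose (41.7%, against 1.98% of all genes) and none fell. All day 0 arrays were exceeded by 20 (83.3%, against 11.8%), with a list median of 1.14. The mean over the list was 7.03 to 7.30 on day 0 arrays and 8.10 to 8.57 on day 1 arrays. In bulk RNA a changed number of cells of a type and a changed amount of RNA per cell cannot be told apart. Lyve1 and Folr2, which mark macrophages resident in tissue, rose by 2.05 ± 0.28 and 1.38 ± 0.26. Folr2, a folate receptor, stood at 7.83, 7.54 and 7.41 at day 0 against 9.11, 8.97 and 8.83 at day 1, and Cd163, the haemoglobin scavenger receptor, at 8.25, 7.40 and 7.88 at day 0 against 9.35, 9.61 and 9.38 at day 1 (adjusted p = 0.0248 and 0.00931). For both the day 1 arrays lay close together and above every day 0 array. Adgre1, the F4/80 antigen, rose by 1.48 ± 0.29 and Csf1r, the receptor for macrophage colony-stimulating factor, by 1.22 ± 0.24. Ccr2, the receptor of recruited monocytes, stood at 1.28 ± 0.32 and did not pass (adjusted p = 0.0599).

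Some genes that rose outside the list are also known from myeloid cells. Fcgr2b, the inhibitory Fc receptor for immunoglobulin G, went from 5.92, 6.14 and 6.04 to 8.09, 8.33 and 7.83 (2.05 ± 0.42, adjusted p = 0.0317), and the difference was 2.02 with the 2 day 0 arrays under the negative control median raised to it. Alox5ap, the protein that presents arachidonic acid to 5-lipoxygenase, went from 6.74, 6.66 and 6.77 to 9.23, 9.36 and 8.47 (2.30 ± 0.37, adjusted p = 0.0156). Alox5 itself, the 5-lipoxygenase of leukotriene synthesis, was at least 1.18-fold higher at day 1, from a dim day 0 level (adjusted p = 0.00856). F13a1, the A chain of coagulation factor XIII, rose by 2.16 ± 0.32 and Lilr4b, a leukocyte immunoglobulin-like receptor, by 2.45 ± 0.46. As with every gene called, none of these had a day 1 array inside the day 0 range. Markers of other leukocytes gave no call. Of the neutrophil (7), T cell (6), B cell (2) and mast cell (6) markers tested none was called, their medians lay between -0.13 and 0.19, and 5, 6, 2 and 1 of them were not above the negative control median at day 0.

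One microRNA gene that rose lies within a macrophage marker gene. Mir511 lies at chr2:14261003-14261081 on the plus strand (GRCm38.p6), inside the bounds of Mrc1, the mannose receptor gene, which spans positions 14229414 to 14332023. Its signals were 7.28, 6.35 and 6.54 at day 0 and 8.33, 9.36 and 8.47 at day 1, groups that did not overlap (2.00 ± 0.35, adjusted p = 0.0201). Mrc1 went from 9.44, 8.65 and 9.29 to 12.63, 13.18 and 12.08 (3.50 ± 0.54, adjusted p = 0.014), and replicate 2 was the highest day 1 array for both. Signal of the Mrc1 primary transcript and of the microRNA cannot be told apart on this array. The mature product listed by RefSeq is shown with its seed, bases 2 to 8, in capitals, because the seed defines the sites it can pair with.
mmu-miR-511-3p: aAUGUGUAgcaaaagacaggau
Of the 556 microRNA genes tested, 6 rose (1.08%, against 1.98% of all genes). The 1 that fell was Mir1943 (-0.41 ± 0.09), which is 0.18% against 1.63%. Calls were thus less frequent than among all genes, and 144 of the 556 were dim in both groups.

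Complement and adhesion genes rose in part. Of 16 complement genes 3 rose (18.75%, against 1.98% of all genes) and none fell. Above all day 0 arrays lay 11 (68.75%, against 11.8%) and below them 1 (6.25%, against 11.5%), with a median of 0.69. C1qb and C1qc, which encode chains of the initiator C1q and are also in the macrophage list, rose by 1.71 ± 0.37 and 1.08 ± 0.22. Cfp, the alternative pathway stabiliser properdin, went from 7.23, 7.29 and 7.38 to 7.98, 8.08 and 8.06 (0.74 ± 0.11, adjusted p = 0.0141). Its 3 day 1 arrays lay within 0.2 log2 units of each other and apart from day 0. Of 13 leukocyte adhesion genes 3 rose (23.1%, against 1.98%) and 7 lay above all day 0 arrays (53.8%, against 11.8%). Those that rose were the integrin subunits Itgam (1.83 ± 0.30) and Itgb2 (1.18 ± 0.23), which pair as the complement receptor Mac-1, and the hyaluronan receptor Cd44 (1.56 ± 0.34). The endothelial ligands Icam1 (0.67 ± 0.23, adjusted p = 0.164) and Vcam1 (0.57 ± 0.51, adjusted p = 0.722) did not pass.

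Genes of cell division formed the list with the highest share of separated members. Of 36 mitosis genes tested, 20 rose (55.6%, against 1.98% of all genes) and none fell. All day 0 arrays were exceeded by 34 (94.4%, against 11.8%). The list median was 0.78. At day 0, 30 of the 36 were not above the negative control median, and 11 of these stayed so at day 1. Most rises are therefore lower bounds: Prc1, a spindle midzone protein, was at least 2.25-fold higher at day 1 (adjusted p = 0.00689), Kif11, the motor that separates spindle poles, at least 2.20-fold (adjusted p = 0.00798), and Ccnb2, a mitotic cyclin, at least 1.44-fold (adjusted p = 0.0116). Mki67, the Ki-67 antigen of cycling cells, had signals of 5.62, 5.95 and 5.57 at day 0 and 9.80, 10.11 and 8.16 at day 1 (3.65 ± 0.49, adjusted p = 0.00895). Top2a, the topoisomerase that untangles sister chromatids, had 5.67, 5.91 and 5.67 at day 0 against 8.21, 8.56 and 7.21 at day 1 (2.25 ± 0.31, adjusted p = 0.00931). At day 0 each of these genes was above the negative control median on 1 of 3 arrays, and with the others raised to that median the differences were 3.36 and 2.01. In both genes day 1 replicate 3 was the lowest treated array and still above day 0. Without day 1 replicate 1, 2 or 3 the mitosis genes that rose numbered 6, 5 and 30, and with the adipocyte covariate none passed (median 0.51).

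Many genes of the G2 and M phases carry a cell cycle homology region, TTTGAA, near their start. Searched on both strands in the 250 bases before the RefSeq start, this motif was found in 11 of the 31 mitosis genes tested with a promoter in the table (35.5%), against 18.3% of all 27025 genes. This share follows from which genes were listed and is not a result of day 1. The 11 with the motif had a median difference of 1.07 and the 20 without it 0.64, and 7 and 9 of them rose. The difference between these medians was not tested. Stretches of 5 promoters that hold it are printed 5′ to 3′ in the direction of the gene, with the motif or its reverse complement TTCAAA in capitals, because they belong to members described above. They lie at chr7:135716457-135716492 (Mki67, minus strand), chr11:99024192-99024227 (Top2a, minus), chr19:37376348-37376381 (Kif11, plus), chr7:80294431-80294466 (Prc1, plus) and chr9:70421701-70421736 (Ccnb2, minus) of GRCm38.p6. A match to these letters is a description and not a measured binding site.
Mki67: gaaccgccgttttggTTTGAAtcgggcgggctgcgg
Top2a: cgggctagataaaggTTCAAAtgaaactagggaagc
Kif11: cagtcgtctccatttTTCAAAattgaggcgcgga
Prc1: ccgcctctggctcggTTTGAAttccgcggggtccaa
Ccnb2: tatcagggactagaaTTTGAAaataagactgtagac

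DNA replication genes had calls in the same direction and a smaller median. Of 29 tested, 5 rose (17.2%, against 1.98% of all genes) and none fell. All day 0 arrays were exceeded by 23 (79.3%, against 11.8%), with a median of 0.44. At day 0, 17 of the 29 were not above the negative control median, and 11 of these stayed so at day 1. Mcm3, a subunit of the replicative helicase, went from 6.12, 6.13 and 6.05 to 6.95, 6.97 and 6.42 (0.68 ± 0.14, adjusted p = 0.0372), with 2 of 3 day 0 arrays above the negative control median. Tyms, the thymidylate synthase, rose by 0.78 ± 0.17, Rrm1, the large subunit of ribonucleotide reductase, by 0.86 ± 0.20 and Ccne2, the cyclin that starts S phase, by 0.53 ± 0.10. Pole, the catalytic subunit of DNA polymerase epsilon, was called as well but was not above the negative control median in either group. Dnmt1, which copies DNA methylation at the replication fork, rose by 0.91 ± 0.11 with 7.81, 7.79 and 7.70 at day 0 and 8.56, 8.86 and 8.62 at day 1 (adjusted p = 0.00549). Ckap2, a spindle-associated protein, was at least 1.68-fold higher.

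Some of the genes that rose were in none of the gene lists and were named for the size or the p of their difference. Igf1, insulin-like growth factor 1, had signals of 10.18, 8.07 and 8.94 at day 0 and 11.72, 12.29 and 11.50 at day 1. The day 0 arrays were spread over more than 2 log2 units but did not reach the day 1 range, and the difference was 2.77 ± 0.55 (adjusted p = 0.03). Fgf7, keratinocyte growth factor, a product of mesenchymal cells, rose from 6.06, 6.20 and 6.44 to 7.49, 7.72 and 7.38 (1.30 ± 0.15, adjusted p = 0.00504). Emp1, an epithelial membrane protein linked to growth control, went from 9.77, 9.62 and 9.72 to 12.49, 12.41 and 12.28 (2.69 ± 0.27, adjusted p = 0.00276). The genes Eps8 (0.78 ± 0.09), an actin capping and receptor-signalling protein, Tiam1 (0.94 ± 0.11), a Rac exchange factor, and Farp1 (0.91 ± 0.11), another exchange factor, each had adjusted p = 0.00549. Piezo2, a stretch-gated ion channel, rose by 2.02 ± 0.42, with day 1 signals of 8.51, 8.80 and 7.36 at day 1 against 5.96, 6.55 and 6.11 at day 0.

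**Figure D3:**
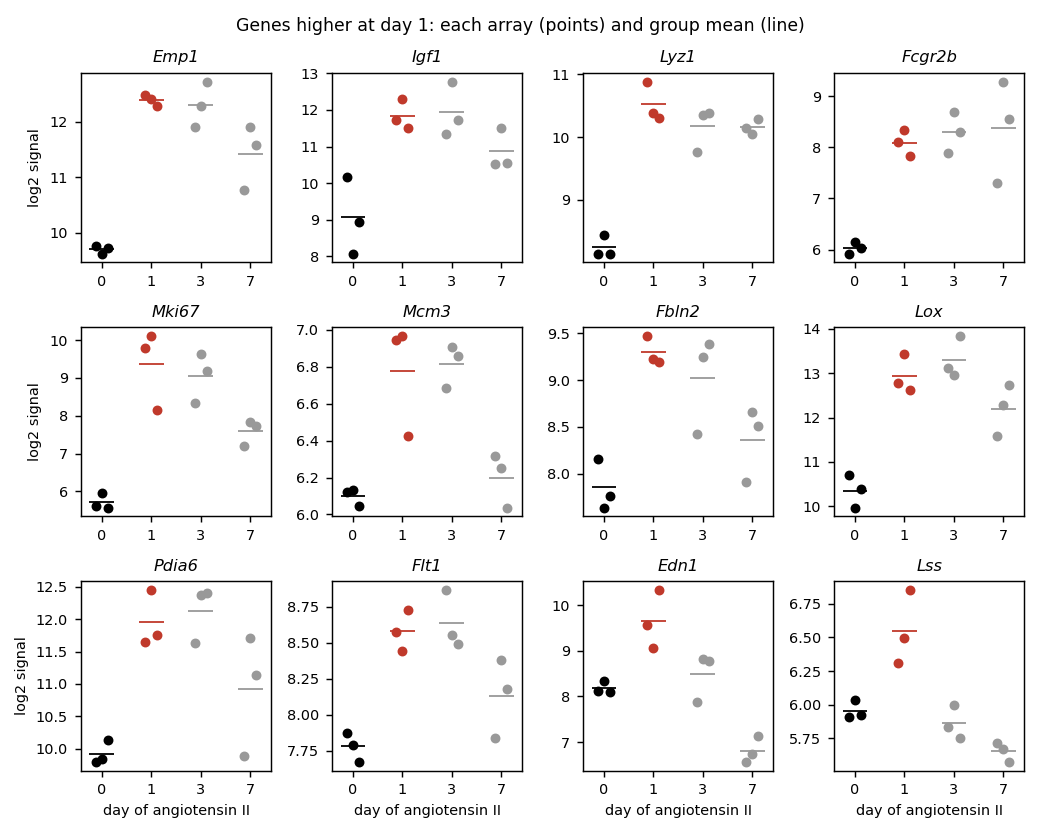
Log2 signal of 12 genes that rose at day 1, on each of the 12 arrays (points) with the group mean (line), by day of angiotensin II (black day 0, red day 1, grey days 3 and 7). Emp1 stood between 12.28 and 12.49 at day 1, above its day 0 values of 9.62 to 9.77, and Edn1 and Lss were above day 0 at day 1 and under it at day 7.

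Structural matrix proteins lay above day 0 more often than all genes tested, and below it about as often. Of 34 tested, 5 rose (14.7%) and 1 fell (2.94%), against 1.98% and 1.63% of all genes. All day 0 arrays were exceeded by 13 (38.2%, against 11.8%), and 4 lay below them (11.8%, against 11.5%), with a list median of 0.26. Fbln2, a fibulin that links elastic fibres to basement membrane, went from 8.16, 7.64 and 7.76 to 9.47, 9.22 and 9.20 (1.44 ± 0.28, adjusted p = 0.0263). Col5a2, a chain of the collagen that seeds fibrils, went from 9.50, 9.34 and 9.37 to 11.13, 11.37 and 10.75 (1.68 ± 0.33, adjusted p = 0.0275). Both genes were higher on every day 1 array, and Col6a3, Col8a1 and Col12a1, of microfibrillar, network and fibril-associated collagens, also rose. Col8a1 was dim at day 0 and was at least 5.28-fold higher. Ogn, the small leucine-rich proteoglycan osteoglycin, fell by 1.92 ± 0.36, from 18.19, 17.84 and 18.57 to 16.39, 16.07 and 16.39 (adjusted p = 0.0245). Thbs1, thrombospondin 1, stood at 15.35, 15.13 and 15.47 at day 1 against 11.30, 12.96 and 10.95 at day 0, but its difference of 3.57 ± 0.88 did not pass (adjusted p = 0.0599).

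Of 24 collagen processing enzymes tested, 2 rose, none fell and 12 lay above all day 0 arrays. Lox, the oxidase that crosslinks collagen and elastin, went from 10.70, 9.97 and 10.39 to 12.79, 13.43 and 12.62 (2.59 ± 0.36, adjusted p = 0.00931), and Loxl4, a related oxidase, was at least 1.15-fold higher from a dim level. Of 22 matrix proteases and inhibitors 4 rose (18.2%, against 1.98%) and none fell. Above all day 0 arrays lay 12 (54.5%, against 11.8%) and below them 2 (9.09%, against 11.5%), with a median of 0.46. Plau, the urokinase that activates plasminogen, stood at 6.03, 6.07 and 6.17 at day 0 against 7.11, 7.82 and 7.36 at day 1, and Adamts5, an aggrecan-cleaving protease, at 8.35, 8.07 and 8.26 at day 0 against 9.18, 10.08 and 9.42 at day 1 (1.34 ± 0.19 and 1.33 ± 0.30, adjusted p = 0.0106 and 0.0465). For both, day 1 replicate 2 was the highest array. Mmp3 and Timp1, the tissue inhibitor of metalloproteinases 1, were the other members that rose (3.17 ± 0.32 and 2.41 ± 0.40, Timp1 from 2 of 3 day 0 arrays above the negative control median).

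Basement membrane genes did not share a direction. Of 21 tested 2 rose (9.52%, against 1.98% of all genes) and 1 fell (4.76%, against 1.63%), with a median of -0.01. Above all day 0 arrays lay 3 (14.3%, against 11.8%) and below them 6 (28.6%, against 11.5%). The nidogens Nid1 and Nid2, which join laminin to collagen IV, rose by 1.45 ± 0.20 and 0.43 ± 0.10. Nid1 stood at 10.22, 9.69 and 9.86 at day 0 against 11.47, 11.45 and 11.22 at day 1, and its day 1 arrays lay within 0.3 log2 units. Col4a6, a chain of the collagen IV network around smooth muscle, fell by 1.29 ± 0.26 (8.15, 7.89 and 8.23 to 6.73, 6.66 and 7.02, adjusted p = 0.0317). Among matrix genes outside the lists, Cilp, a cartilage-type matrix protein, rose by 1.24 ± 0.14 (adjusted p = 0.00549) and Ccn5, a matricellular protein, by 1.80 ± 0.36 (adjusted p = 0.0313). In the list of TGF-beta and BMP signalling 1 gene of 29 rose and 1 fell (3.45% each, against 1.98% and 1.63% of all genes). Tgfb1, the cytokine itself, went from 7.08, 7.11 and 7.10 to 7.43, 7.45 and 7.42, a difference of only 0.34 ± 0.07 that passed with both groups tight (adjusted p = 0.0327). Ltbp4, which stores latent TGF-beta in elastic fibres, fell by 1.58 ± 0.34.

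Chaperones of the endoplasmic reticulum and of the cytosol were listed apart, and most members of both lists had no call. Of 25 endoplasmic reticulum chaperones tested, 4 rose, none fell, 12 lay above all day 0 arrays and 1 below, with a median of 0.27. Of 20 cytosolic heat shock chaperones none rose, 4 fell, none lay above and 14 lay below, with a median of -0.73. On the 3 day 1 arrays the list medians were 0.08, 0.53 and 0.53 for the first and -0.97, -0.68 and -0.28 for the second, so that the first median was the higher on each array. The difference between the lists was not tested. With the adipocyte covariate no member of either list passed, and the medians were 0.50 and -0.38.

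Hsp90b1, the reticulum's Hsp90 form Grp94, went from 14.19, 14.30 and 14.38 to 15.56, 16.01 and 15.78 (1.49 ± 0.24, adjusted p = 0.0156). Pdia6, a disulfide isomerase, went from 9.79, 9.84 and 10.14 to 11.65, 12.45 and 11.75 (2.03 ± 0.43, adjusted p = 0.0355). Both were higher on every day 1 array, with replicate 2 the highest. Dnajb11, a co-chaperone of Hspa5, rose by 0.96 ± 0.20 and Sdf2l1, another member of the same chaperone complex, by 0.59 ± 0.13. Hspa5, the master chaperone BiP, stood at 10.57, 11.39 and 11.44 at day 1 against 9.78, 9.93 and 9.98 at day 0, which did not pass (1.24 ± 0.49, adjusted p = 0.231).

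Promoters of such chaperones are known for the ER stress response element, which is CCAAT, 9 bases of any kind, and CCACG. Searched on both strands in the 250 bases before the RefSeq start, it was found in 9 of the 23 listed genes tested that have a promoter in the table (39.1%) and in 0.13% of all genes. The 9 had a median difference of 0.72, with 2 that rose and 7 that were higher at day 1, and the 14 without it one of 0.15, with 2 that rose. The share with the element follows from which genes were listed and is not a result of day 1. A match is a description and not a measured binding site. The stretches of 4 genes are shown, in the direction of the gene and with the fixed letters of the element (CCAAT and CCACG, or CGTGG and ATTGG on the opposite strand) in capitals, as they allow the members that passed and that did not pass to be compared. They lie at chr10:86705518-86705566 (Hsp90b1, minus strand), chr12:17266476-17266524 (Pdia6, plus), chr2:34772010-34772058 (Hspa5, plus) and chr15:88819505-88819553 (Creld2, plus) of GRCm38.p6.
Hsp90b1: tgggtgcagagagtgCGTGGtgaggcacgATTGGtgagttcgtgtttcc
Pdia6: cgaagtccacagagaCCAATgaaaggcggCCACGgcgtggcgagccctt
Hspa5: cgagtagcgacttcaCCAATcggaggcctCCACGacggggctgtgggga
Creld2: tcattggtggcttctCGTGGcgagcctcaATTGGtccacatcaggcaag
Creld2, a reticulum protein with EGF-like domains, stood at 8.50, 9.45 and 8.94 at day 1 against 7.83, 8.02 and 7.85 at day 0 and did not pass (1.07 ± 0.36, adjusted p = 0.156).

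Among the cytosolic chaperones Hspa1a, the inducible Hsp70, stood at 14.83, 13.32 and 15.01 at day 0 and at 7.54, 7.75 and 10.02 at day 1 (-5.95 ± 0.71, adjusted p = 0.00549). Hspa1a has a near-identical neighbour gene, Hspa1b, whose signal may be shared. Hspb8, a small heat shock protein of the chaperone-assisted autophagy complex, went from 9.41, 9.63 and 9.65 to 7.66, 8.20 and 8.24 (-1.53 ± 0.17, adjusted p = 0.00504), and Ahsa1, the activator of the Hsp90 ATPase, from 8.72, 9.09 and 8.80 to 7.90, 8.17 and 8.18 (-0.79 ± 0.11, adjusted p = 0.00931). As with every gene called, no day 1 array of these 3 genes reached the day 0 range. Dnajb1, the co-chaperone Hsp40, fell by 0.81 ± 0.18. Hsph1 (-1.98 ± 0.47, adjusted p = 0.0548), an Hsp110 exchange factor, Bag3 (-0.89 ± 0.22, adjusted p = 0.0631), the partner of Hspb8, and Hsp90aa1 (-1.38 ± 0.36, adjusted p = 0.0754), the inducible cytosolic Hsp90, lay below day 0 on all 3 arrays without passing. The core of a heat shock element, GAANNTTC, was found in the 250 bases before the start of 5 of 17 members with a promoter in the table (29.4%), against 7.73% of all genes. The 5 had a median of -0.40 and the other 12 one of -0.75. Here too the share follows from which genes were listed, and a match is not a measured binding site. Hspa1a, the member with the largest fall, carries it at chr17:34972238-34972275 (minus strand), shown with its fixed letters in capitals.
Hspa1a: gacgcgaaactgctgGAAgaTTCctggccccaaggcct

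**Figure D4:**
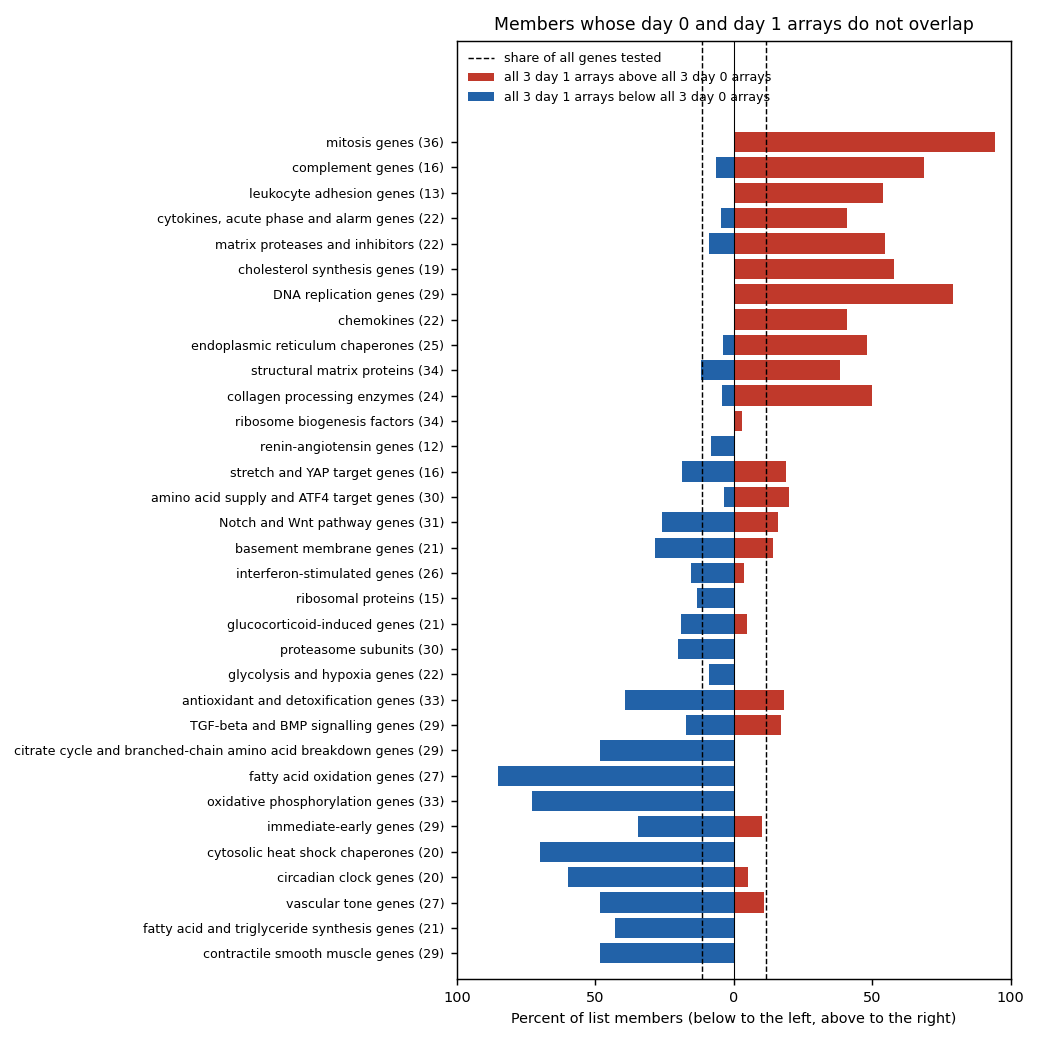
Bars give, for each gene list, the percent of genes tested whose 3 day 1 arrays all lay above (red, to the right) or below (blue, to the left) all 3 day 0 arrays, and dashed lines give the same share over all genes tested (11.8% above, 11.5% below). Mitosis genes reached 94.4% above, and fatty acid oxidation genes 85.2% below.

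Most lipid and energy genes had day 1 signals under day 0, while cholesterol synthesis genes lay above it. Of 19 cholesterol synthesis genes tested, 2 rose (10.5%, against 1.98% of all genes) and none fell. All day 0 arrays were exceeded by 11 (57.9%, against 11.8%), with a median of 0.45. Lss, the lanosterol synthase, above the negative control median on 1 of 3 day 0 arrays, went from 5.91, 6.03 and 5.92 to 6.31, 6.49 and 6.85 (0.60 ± 0.13, adjusted p = 0.0398, or 0.52 with the others raised to that median), and Stard4, a sterol carrier, from 6.42, 6.35 and 6.22 to 6.96, 6.74 and 6.83 (0.51 ± 0.11, adjusted p = 0.0406). Cyp51, the lanosterol demethylase, stood at 7.94, 8.19 and 8.84 at day 1 against 7.21, 7.66 and 7.48 at day 0 without passing (0.88 ± 0.22, adjusted p = 0.0601). Here the order of the arrays was turned: replicate 3, the nearest to day 0 for most calls, was the highest day 1 array for Lss and Cyp51. The list medians on replicates 1, 2 and 3 were 0.27, 0.47 and 0.50.

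Of 27 fatty acid oxidation genes 1 fell (3.70%, against 1.63% of all genes) and none rose. Yet 23 lay below all day 0 arrays (85.2%, against 11.5%), with a median of -0.53. Fabp3, a fatty acid carrier of muscle and brown fat, was the one called, at 9.33, 9.22 and 9.14 at day 0 against 7.36, 7.53 and 8.34 at day 1 (-1.49 ± 0.30, adjusted p = 0.0301). Of 33 oxidative phosphorylation genes 3 fell (9.09%, against 1.63%) and 24 lay below day 0 (72.7%, against 11.5%), with a median of -0.55. Ndufb3, a subunit of complex I, went from 9.17, 9.10 and 9.30 to 7.68, 7.88 and 8.28 (-1.25 ± 0.19, adjusted p = 0.0146), and the complex IV subunits Cox4i1 and Cox5a fell by 0.62 ± 0.11 and 0.73 ± 0.16. In each of these 4 genes the order of the day 1 arrays was that of the adipocyte markers, with replicate 1 the lowest and replicate 3 the highest. Fabp3 is itself a brown adipocyte marker and enters the adipocyte mean, so its order is not an independent reading. Genes of the citrate cycle and branched-chain amino acid breakdown (29 tested, median -0.50) and of fatty acid and triglyceride synthesis (21, median -0.90) had no call. Below day 0 lay 14 and 9 of them (48.3% and 42.9%, against 11.5%). Ppargc1a, a coactivator of mitochondrial genes, was at -1.47 ± 0.36 without passing (adjusted p = 0.0568). With the adipocyte covariate the fatty acid oxidation median was -0.15. Fabp3, Ppargc1a, Lipe and Cd36 are in this list and also among the adipocyte markers, so the covariate and the list are not independent.

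Fat cell markers were measured beside these lists. Of 11 brown adipocyte markers 3 fell (27.3%, against 1.63% of all genes) and 1 rose (9.09%, against 1.98%). Below all day 0 arrays lay 6 (54.5%, against 11.5%) and above them 2 (18.2%, against 11.8%). The list mean was 7.90 to 8.21 on day 0 arrays and 6.84 to 7.54 on day 1 arrays. Ucp1, the uncoupling protein that defines the cell type, had 11.51, 12.18 and 10.66 at day 0 and 5.39, 5.53 and 7.08 at day 1 (-5.45 ± 1.27, adjusted p = 0.0495). At day 1 it was above the negative control median on 1 of 3 arrays, and with the others raised to that median the difference was -5.08. Otop1, a proton channel, was called as a fall but was dim at day 1 and above the negative control median on 2 of 3 arrays at day 0, so that no fold is given. Dio2, the thyroid hormone deiodinase, went the other way, from 7.45, 7.57 and 7.05 to 9.52, 9.99 and 8.59 (2.01 ± 0.45, adjusted p = 0.0442). Of 15 white adipocyte markers none was called and 2 lay below day 0 (13.3%, against 11.5% of all genes). Their list mean was 11.17 to 11.20 at day 0 and 10.06 to 11.54 at day 1. Aoc3, the vascular adhesion protein 1 of fat and smooth muscle, fell from 11.24, 11.06 and 11.00 to 8.65, 9.08 and 9.77 (-1.94 ± 0.33, adjusted p = 0.0177). Irs2, an adaptor of the insulin receptor, fell by 2.41 ± 0.52 (adjusted p = 0.0399).

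Most contractile genes of smooth muscle were lower without passing the test. Of 29 contractile genes tested 1 fell (3.45%, against 1.63% of all genes). Below all day 0 arrays lay 14 (48.3%, against 11.5%), with a median of -1.23. Myocd, the coactivator that switches the contractile genes on, went from 11.50, 10.68 and 11.49 to 7.89, 8.54 and 9.69 (-2.51 ± 0.57, adjusted p = 0.0449). Myh11, the smooth muscle myosin, stood at 15.72, 16.90 and 18.91 at day 1 against 19.23, 19.30 and 19.28 at day 0 and did not pass (adjusted p = 0.394). Its replicate 3 was less than 1 log2 unit from day 0 while replicate 1 was over 3 away. Lmod1, a leiomodin, and Synpo2, an actin-binding protein, at -2.10 ± 0.74 and -2.62 ± 0.76, showed the same order and did not pass (adjusted p = 0.181 and 0.0994). The 6 smooth muscle identity markers averaged 15.94 to 16.20 on day 0 arrays and 14.04 to 15.70 on day 1 arrays, and none was called.

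Genes that set vascular tone gave more calls. Of 27 tested 5 fell (18.5%, against 1.63% of all genes) and 2 rose (7.41%, against 1.98%). Below all day 0 arrays lay 13 (48.1%, against 11.5%) and above them 3 (11.1%, against 11.8%), with a median of -0.81. Of those that fell, 3 belong to the nitric oxide and cyclic GMP route. Gucy1b1, the beta subunit of soluble guanylate cyclase, went from 12.05, 12.05 and 12.17 to 8.73, 9.38 and 10.27 (-2.63 ± 0.42, adjusted p = 0.0149), Prkg1, the kinase that cyclic GMP activates, from 8.75, 9.04 and 9.21 to 7.68, 7.56 and 8.15 (-1.20 ± 0.24, adjusted p = 0.0313), and Pde5a, which degrades cyclic GMP, from 11.58, 11.86 and 11.86 to 9.84, 9.79 and 10.08 (-1.86 ± 0.28, adjusted p = 0.0118). Pde5a had the tightest day 1 arrays of the 3. Abcc9, the regulatory subunit of vascular potassium channels, fell by 1.31 ± 0.26 and Htr2a, a serotonin receptor that constricts, by 0.90 ± 0.20. Edn1, the constrictor peptide endothelin 1, rose from 8.12, 8.35 and 8.11 to 9.57, 9.06 and 10.33 (1.46 ± 0.34, adjusted p = 0.0475), and Rgs16, a brake on G protein signalling, was called as a rise with both groups not above the negative control median.

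Some of the genes that fell were likewise in none of the gene lists and were named for the size or the p of their difference. Kcnab1, a potassium channel beta subunit, went from 9.66, 9.84 and 10.05 to 6.91, 7.46 and 8.25 (-2.31 ± 0.33, adjusted p = 0.0104). Lmcd1, a LIM-domain regulator, fell by 2.50 ± 0.51, and Sgca, the alpha subunit of sarcoglycan, was at least 1.65-fold lower. Fbxo32, the ubiquitin ligase atrogin 1 of muscle atrophy, fell from 9.12, 9.96 and 9.67 to 6.78, 7.17 and 7.73 (-2.36 ± 0.34, adjusted p = 0.0106). Osr1, a zinc finger factor of mesenchyme, fell by 2.21 ± 0.41. Pkp4, a plakophilin-related junction protein, fell by 1.99 ± 0.24, and the junction plaque gene Dsp, desmoplakin, fell by 2.98 ± 0.48. Ncam1, the neural cell adhesion molecule, fell by 2.55 ± 0.43, Neo1, the netrin and repulsive guidance receptor neogenin, by 1.94 ± 0.35, and the semaphorins Sema5a and Sema3c by 1.96 ± 0.21 and 1.93 ± 0.27. In these genes, as in every gene that fell, the 3 day 1 arrays lay below the 3 day 0 arrays.

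**Figure D5:**
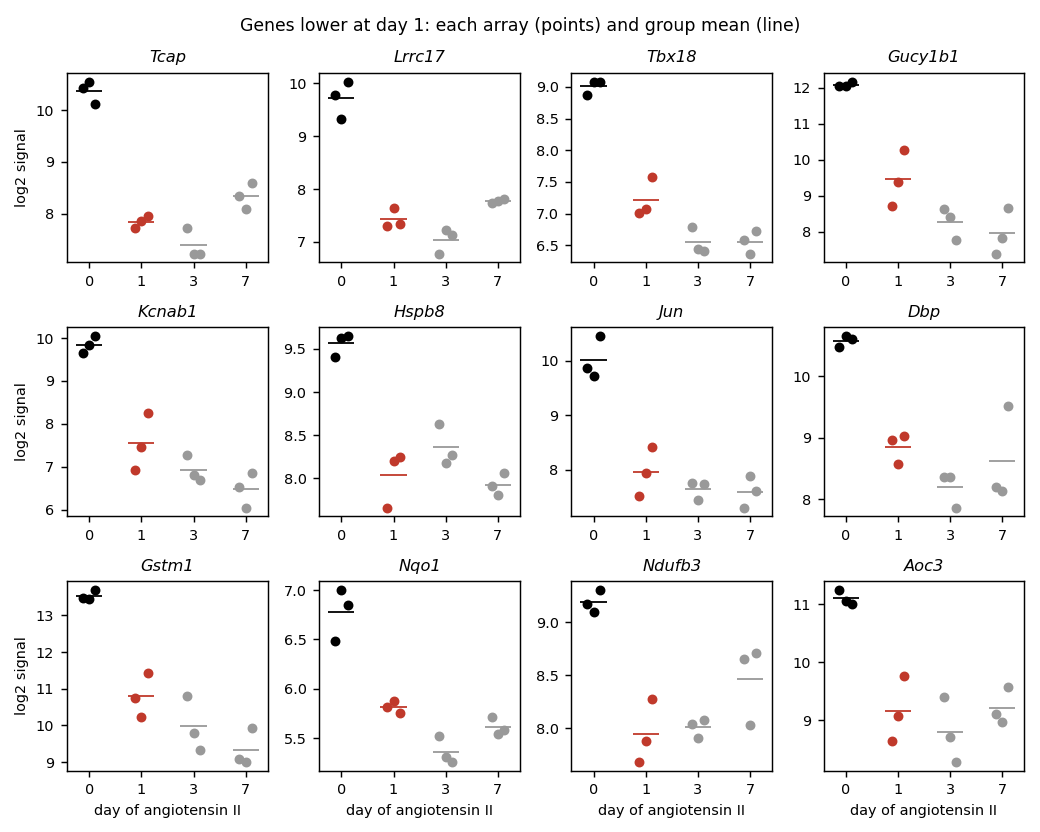
Log2 signal of 12 genes that fell at day 1, on each of the 12 arrays (points) with the group mean (line), by day of angiotensin II (black day 0, red day 1, grey days 3 and 7). Tcap stood between 7.72 and 7.95 at day 1 against 10.13 to 10.55 at day 0, and in Gucy1b1 and Kcnab1 the third day 1 array lay nearest to day 0.

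Immediate-early genes, which many stimuli switch on within minutes, were mostly lower than in untreated vessels after 1 day. Of 29 tested 22 had a difference under 0, as had 10540 of all 22083 genes, and the median was -0.62. Of the 29, 3 fell (10.3%, against 1.63% of all genes) and 1 rose (3.45%, against 1.98%). Below all day 0 arrays lay 10 (34.5%, against 11.5%) and above them 3 (10.3%, against 11.8%). Jun, a subunit of the AP-1 factor, went from 9.86, 9.72 and 10.46 to 7.52, 7.95 and 8.43 (-2.05 ± 0.26, adjusted p = 0.00736), and Atf3, a stress-induced factor, from 8.30, 9.33 and 9.15 to 6.26, 6.09 and 7.27 (-2.39 ± 0.33, adjusted p = 0.00931). Egr1, an early growth response factor, fell by 0.99 ± 0.19. Both Jun and Atf3 were lower by over 1 log2 unit on every day 1 array. Myc, the growth-promoting factor, went the other way, from 6.78, 6.71 and 6.66 to 7.10, 7.30 and 7.49 (0.58 ± 0.13, adjusted p = 0.0454). Nr4a1, an orphan nuclear receptor, stood at 12.70, 12.72 and 15.31 at day 0 against 8.77, 10.19 and 11.30 at day 1 and missed the threshold (-3.49 ± 0.82, adjusted p = 0.0522).

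Clock genes differed as well, and the labels do not give the hour at which tissue was collected. Of 20 tested 5 fell, 1 rose and 12 lay below all day 0 arrays, with a median of -0.81. Dbp, a clock output factor, stood at 10.48, 10.66 and 10.61 at day 0 against 8.97, 8.57 and 9.03 at day 1 (-1.73 ± 0.33, adjusted p = 0.027), and Bhlhe41, a repressor, fell by 1.27 ± 0.22. Hlf, related to Dbp, was at least 2.27-fold lower, and the repressors Nr1d1 and Nr1d2 fell by 1.88 ± 0.41 and 1.17 ± 0.26. Arntl, the activator of the core loop, was called as a rise and was at least 1.01-fold higher from a dim day 0 level. Per1, Per2 and Per3, repressors of the core loop, were lower on all 3 day 1 arrays without passing (adjusted p = 0.0926, 0.0825 and 0.162). A difference in the hour of collection and a change with treatment cannot be told apart.

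Detoxification genes were lower in part. Of 33 antioxidant and detoxification genes 5 fell (15.2%, against 1.63% of all genes) and 1 rose (3.03%, against 1.98%). Below all day 0 arrays lay 13 (39.4%, against 11.5%) and above them 6 (18.2%, against 11.8%), with a median of -0.22. The glutathione transferase Gstm1 went from 13.48, 13.44 and 13.69 to 10.75, 10.24 and 11.43 (-2.73 ± 0.41, adjusted p = 0.0128), and its family members Gstm2 and Gstp1 fell by 1.28 ± 0.21 and 0.89 ± 0.20. Paralogs of this family can share signal. Nqo1, a quinone reductase of the Nrf2 programme, was at least 1.65-fold lower (adjusted p = 0.00856), and Gpx4, which removes lipid peroxides, fell by 0.66 ± 0.13. Ncf1, a subunit of the phagocyte oxidase, rose from 6.32, 6.21 and 6.20 to 7.01, 6.99 and 6.81 (0.69 ± 0.13, adjusted p = 0.0251). Nox4, the oxidase of smooth muscle and fibroblasts, stood at -2.09 ± 0.50 and missed the threshold (adjusted p = 0.053).

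Genes of the renin-angiotensin system itself gave 1 call, a fall, among 12 tested (8.33%, against 1.63% of all genes). Nr3c2, the mineralocorticoid receptor that binds aldosterone, went from 7.42, 7.66 and 7.79 to 7.00, 6.99 and 7.04, a tight and separate group (-0.61 ± 0.11, adjusted p = 0.0202). The other 11 overlapped between the groups. Agtr1b, the second type 1 receptor gene of the mouse, stood at 6.81, 6.66 and 6.81 at day 0 against 7.05, 6.63 and 6.81 at day 1, and Agtrap, a protein that binds the receptor tail, at 6.93, 6.76 and 6.78 at day 0 against 6.90, 6.76 and 6.68 at day 1. Agtr2, the type 2 receptor, was not above the negative control median in either group. Of the peptidases, Anpep was at 0.50 ± 0.25 and Mme at 0.12 ± 0.24 (adjusted p = 0.392 and 0.932).

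Endothelial markers gave a single call. Of 17 tested 1 rose (5.88%, against 1.98% of all genes) and none fell, and 6 lay above all day 0 arrays (35.3%, against 11.8%). The list mean was 8.01 to 8.33 at day 0 and 8.25 to 8.63 at day 1. Flt1, the vascular endothelial growth factor receptor 1, went from 7.88, 7.79 and 7.67 to 8.58, 8.44 and 8.72 (0.80 ± 0.15, adjusted p = 0.0258). Cdh5, the endothelial cadherin, stood at 12.07, 11.76 and 11.41 at day 1 against 10.90, 10.33 and 10.49 at day 0 without passing (1.17 ± 0.37, adjusted p = 0.128). Of 9 fibroblast markers Clec3b, the plasminogen-binding tetranectin, fell by 1.43 ± 0.23, and Pi16, a marker of adventitial fibroblasts, was at 1.25 ± 0.30 without passing (adjusted p = 0.0562). Of the 7 pericyte markers only Abcc9 was called. In the lists of mesothelial (4 tested), skeletal muscle (9), cardiac muscle (8), Schwann and neuronal (11) and erythroid (1) markers no gene was called.

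Calls were few or absent in the remaining lists. In the Notch and Wnt list 2 of 31 fell (6.45%, against 1.63% of all genes). They were the R-spondin receptor Lgr6, by 2.70 ± 0.43, and the Wnt modulator Dkk3, by 1.91 ± 0.20. Dkk3 went from 10.42, 11.10 and 10.71 to 8.63, 8.95 and 8.91 (adjusted p = 0.0036). In the list of amino acid supply and ATF4 targets 1 of 30 fell (3.33%, against 1.63%), the glutamine transporter Slc38a1 (-0.32 ± 0.07). Stretch and YAP targets (16 tested, median 0.07), ribosome biogenesis factors (34, 0.10), glucocorticoid-induced genes (21, -0.16), interferon-stimulated genes (26, -0.04), glycolysis and hypoxia genes (22, -0.21), proteasome subunits (30, -0.19) and ribosomal proteins (15, -0.07) had no call, so that a difference in single members was not detected at 3 arrays a group. Ccn1, a YAP target, stood at 15.58, 15.61 and 16.45 at day 1 against 18.10, 18.15 and 18.64 at day 0 and narrowly missed (-2.42 ± 0.59, adjusted p = 0.0571). Among interferon-stimulated genes Gbp2, a guanylate-binding protein, was at 7.66, 7.48 and 7.39 at day 1 against 7.87, 8.62 and 9.74 at day 0, a day 0 group that was itself spread over more than 1 log2 unit.

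The genes called at day 1 were read at the later times, which share the day 0 arrays. Of the 437 that rose, 434 were above the day 0 mean at day 3 and 413 at day 7, and their median difference from day 0 was 0.90 at day 3 and 0.66 at day 7. All 360 that fell were below day 0 at day 3 and 358 at day 7, with medians of -1.03 and -1.06. Between day 3 and day 1 limma called 0 of 22083 genes, with 1775 at an unadjusted p under 0.05, 93 of them among the 797. Some genes that rose lay near day 0 by day 7, a contrast added after seeing the data. Angptl7, a secreted angiopoietin-like protein, differed from day 0 by 2.37 ± 0.39 at the first time, 2.16 at the second and -0.20 at the last, Plau at 1.34, 0.79 and 0.15, and Dnmt1 at 0.91, 0.69 and -0.03, and each differed between day 7 and day 1 in limma (adjusted p = 0.0165, 0.0183 and 0.00764). Others had values at day 7 close to those at day 1, among them Col6a3 (1.89, 1.83 and 1.93), Lyz2 (3.11, 2.88 and 3.19) and Cilp (1.24, 1.07 and 1.30). Gucy1b1 stood at -2.63, -3.81 and -4.12 and Kcnab1 at -2.31, -2.93 and -3.38 at the 3 times, and neither differed between day 7 and day 1 beyond the threshold (adjusted p = 0.0633 and 0.076).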

How the data were processed

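Total RNA was hybridised to 12 Affymetrix arrays. Values deposited by the authors are log2 signals. Per the submitters' processing notes they were made in Affymetrix Expression Console, whose version and normalization are not stated there. Feature identifiers are transcript clusters of another design than the labels name. Of 65956 clusters, 31221 had 1 gene symbol, 1529 several (left out) and 33206 none. For each of 30748 genes the cluster with the highest mean was taken, and 22083 with at least 3 of 12 arrays at or above the 40th percentile (5.25) were kept. The scale ends at 19.93. Genes were tested as deposited with limma 3.58.1 in R 4.3.3, a mean per group over 12 arrays, after the method had been tested on simulated data. The number of arrays limits precision, and p-values measure the spread between these arrays. A gene is dim in a group where all 3 arrays are under their own negative control median, and its bound is taken against those medians.

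The named genes are the 40 largest and 20 smallest-p calls each way whose groups do not overlap. Called list members, up to 4 uncalled members and the renin-angiotensin genes were named as well. MicroRNA genes, the Snord set and genes in every fit were added after seeing values. Comparison members and lists were chosen with earlier results of these data known. Of 1145 list entries 1041 were matched. Promoter and microRNA sequences are from RefSeq (GRCm38.p6). Alternatives were normalization, filter, cluster choice, variance model, replicate block, covariates, array weights and leaving out each array.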

Additional observations from a re-analysis of the deposited data

Results flagged for a closer look

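Of the called genes named in the report, 4 lay on opposite sides of day 0 at day 1 and at day 7, a contrast chosen after seeing the data. Edn1 stood at 1.46 ± 0.34 at day 1 and -1.38 at day 7, and the difference between the 2 days passed in limma (adjusted p = 0.00775). Lss, of cholesterol synthesis, stood at 0.60 ± 0.13 and -0.30 (adjusted p = 0.0135), the resident macrophage marker Lyve1 at 2.05 ± 0.28 and -0.55 (adjusted p = 0.00595), and Tgfb1 at 0.34 ± 0.07 and -0.14 (adjusted p = 0.0138). Among 20187 transcript clusters with no gene symbol, which the comparisons above do not use, 13 rose (0.0644%) and 36 fell (0.178%) at day 1 in limma.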

How the results depend on the processing

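Counts of genes that rose and fell at day 1 (437 and 360) were within 1.5 times under quantile normalization, centring, both filters, mean clusters, variance trend and the control-feature covariate. The share of rises was 54.8% of calls and ran from 46.2% without day 1 replicate 3 to 63.4% with the control-feature covariate. With only the 6 arrays compared 130 rose and 79 fell, with the adipocyte mean as a covariate 11 and 8, and with gene-by-gene array weights, chosen after seeing the data, 1870 and 1787. Of the genes called under those weights 203 also differed between day 3 and day 1, where the main count was 0. Leaving out 1 array gave 64 to 565 rises and 37 to 590 falls; without day 3 replicate 2 or 3 they were 281 and 194, and 273 and 208. Array weights shared by all genes could not be fitted, as the estimate did not converge. With the replicate number as a block 455 rose and 365 fell, and 655 of the 797 calls were kept. Same-numbered arrays of day 0 and day 1 had correlations of their deviations between -0.15 and 0.09, and 0 of 3 day 0 arrays correlated best with its own number, so the numbers were not taken as pairs. All called genes tested kept their sign in every alternative. Their groups do not overlap, so only normalization, cluster choice and the covariates could have turned a sign. For the other alternatives the sign is no check. The cause of these shifts was not tested. Esm1, Nid2, Piezo2 and Tyms at day 0 and Htr2a at day 1 had 1 of 3 arrays under the negative control median, and with it raised to that median their differences were 4.37, 0.42, 2.01, 0.78 and -0.85; raising Ccr2, Mcm3 and Timp1 in the same way gave 1.27, 0.67 and 2.29. Signal near the negative controls limits what can be said of dim genes (33.1% of those tested at day 0), and 235 genes that reached the scale's end on any of the 6 arrays, 183 of them on all 6, have no measured difference or only a bound.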

Other observations

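Small nucleolar RNA genes named Snord, which guide methylation of ribosomal RNA, were higher at day 1 as a set that was chosen after seeing the values. Of 42 tested 8 rose (19.0%, against 1.98% of all genes) and 1 fell (2.38%, against 1.63%). All day 0 arrays were exceeded by 28 of them (66.7%, against 11.8% of all genes). The median difference was 0.94, and the list mean was 11.46 to 11.79 at day 0 and 12.29 to 12.52 at day 1. The list medians on the 3 day 1 arrays were 0.84, 0.80 and 0.92. Protein factors of ribosome biogenesis gave no call beside them (median 0.10).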
